A study of Mus musculus with 12 samples.

Results

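The endothelial marker genes were measured by RNA-seq of whole extensor digitorum longus (EDL), a mouse leg muscle made almost wholly of fast fibers. They are 39 protein-coding genes that mark the cells lining blood vessels, listed by name, and a gene was kept where its mean over the 12 libraries was at least 0.5 FPKM (fragments per kilobase of transcript, scaled by depth). All 39 were in the table of 17752 genes, each under a symbol of its own, and all 39 passed, with the lowest mean at 1.25 FPKM. None was chosen for how it differed between groups in the rule itself, although earlier results of these libraries were known when the list was drawn up.

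The libraries came from male mice on a C57BL/6 background that carried loxP sites at Nrip1, which encodes RIP140, a corepressor of nuclear receptors. The study places these sites on either side of the exon that holds the coding sequence, so the other exons were not flanked. The labels give 2 genotypes, Ctrl and Nrip1KO, and 2 training states, Sedentary and Trained, with 3 libraries in each of the 4 groups. In the study, Nrip1KO stands for strNrip1-/- mice, in which Cre recombinase was made in heart and skeletal muscle from the promoter of muscle creatine kinase, and Ctrl for Cre-negative littermates. That promoter is one of striated muscle and not of endothelial cells, so the cells these genes mark were not the intended target of the deletion. Training was nocturnal voluntary wheel running for 8 weeks from 8 weeks of age.

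Endothelial cells line every vessel, and in muscle most of them form capillaries that run along the fibers. Neighbouring cells are joined by VE-cadherin (Cdh5), claudin 5 (Cldn5) and CD31 (Pecam1), the protein that the study stained to count capillaries. Their identity is held by transcription factors of the ETS family (Erg, Fli1) and the SOXF group (Sox7, Sox17, Sox18), and the shear-responsive factor Klf2. In whole muscle, more endothelial cells and more of a transcript in each cell cannot be told apart.

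Nrip1 went against the genotype labels. It stood at 3.60, 2.55 and 3.84 FPKM in labelled Ctrl sedentary muscle and at 15.5, 16.3 and 14.9 in labelled Nrip1KO sedentary muscle. In trained muscle it stood at 2.53, 4.76 and 3.56 against 20.7, 14.9 and 16.6. A value per gene does not show from which exons the fragments came, and libraries are therefore called labelled Ctrl or labelled Nrip1KO throughout. The spacing of low FPKM values gave depths per library at which 1 FPKM over 2 kilobases of effective length rests on 39.9 to 58.1 fragments. Effective length is here the length of the transcript less 300 to 340 bases, as fitted per library.

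The labels say that the libraries are separate samples, and the study that the EDL came from its own cohort of mice, so p-values measure the spread between these samples. Genotypes were compared at each training state and averaged over both, training at each genotype and averaged over both, and a genotype by training interaction asked whether the genotype difference changed with training. The test was limma on log2(FPKM + 0.5) over 12744 genes, and every log2 fold change is on that scale, on which small values are understated. A gene was called at an adjusted p under 0.05 and a fold over 1.2, and for the interaction at the adjusted p alone. Adjustment was by Benjamini-Hochberg over all genes tested.

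The most abundant member was Cav1, the main coat protein of caveolae, at a mean of 69.0 FPKM. Gpihbp1, which carries lipoprotein lipase to the capillary surface, followed at 59.6 FPKM, and Egfl7, a secreted protein of the vessel matrix, at 54.7 FPKM. The sialomucin Cd34 (25.2 FPKM), Cdh5 (24.5), the adhesion receptor Adgrf5 (24.2) and Pecam1 (23.5) came next and lay within the spread of their libraries of each other. Clec14a, a lectin-like receptor, was lowest, so the members spanned a 55.4-fold range of level per length. Within a group the coefficient of variation of a member had a median of 10.3%.

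Cav1 read 67.9, 66.3 and 65.0 FPKM in labelled Ctrl sedentary and 78.6, 74.3 and 72.3 in labelled Nrip1KO sedentary libraries. In trained muscle it read 68.9, 60.6 and 61.0 against 74.3, 62.4 and 76.1. The sedentary groups did not overlap and the trained groups did, and the averaged log2 difference of 0.17 (SE 0.059, adjusted p 0.106, limma) was not called. Gpihbp1 overlapped between genotypes in both states, with 49.1, 55.0 and 51.1 FPKM against 54.0, 67.9 and 49.5 in sedentary muscle and 54.7, 70.3 and 49.2 against 70.6, 76.3 and 67.4 in trained muscle. Egfl7 was at 57.1, 57.4 and 58.0 FPKM in labelled Ctrl sedentary muscle, while the labelled Nrip1KO sedentary libraries spread from 44.9 through 70.9 to 74.5. In trained muscle it held 47.9, 47.5 and 43.2 against 48.0, 52.4 and 54.9, without overlap. Cd34 read 25.4, 23.5 and 25.0 FPKM against 28.6, 22.6 and 22.9 in sedentary and 25.4, 25.8 and 27.9 against 30.4, 20.3 and 25.3 in trained muscle. It overlapped between genotypes in both states, with an averaged log2 difference of −0.04 (95% interval −0.24 to 0.17).

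**Figure D1:**
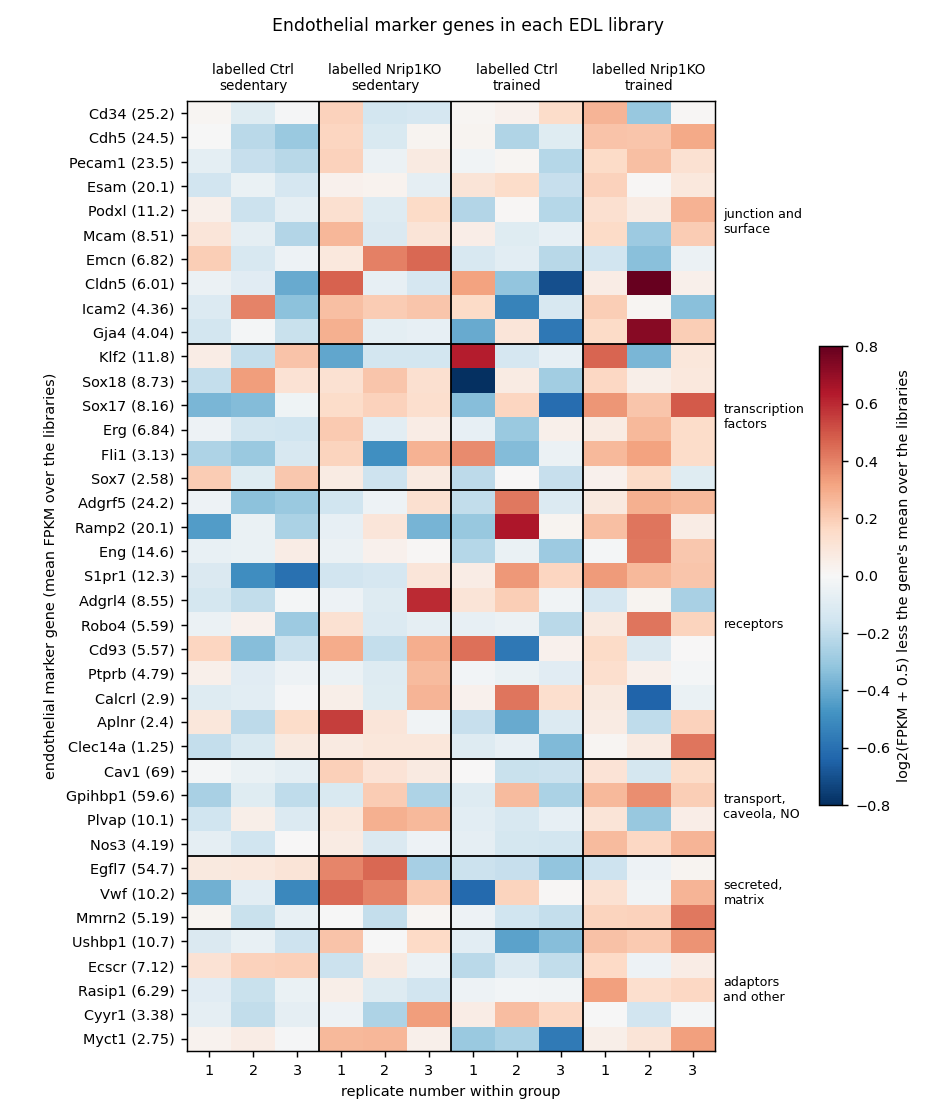
Each of the 39 endothelial marker genes (rows, by role, with the mean FPKM in brackets) in each of the 12 libraries (columns, in the 4 labelled groups). Colour is log2(FPKM + 0.5) less the gene's mean over the libraries; the labelled Nrip1KO trained libraries have 35, 23 and 32 members above their own median and the labelled Ctrl trained libraries 14, 15 and 10.

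Summed over the members, FPKM was 490, 485 and 477 in labelled Ctrl sedentary libraries and 560, 549 and 516 in labelled Nrip1KO sedentary libraries. In trained muscle the sums were 494, 524 and 460 against 571, 557 and 571. In FPKM as deposited the labelled genotypes did not overlap in either state, in a sum led by Cav1, Gpihbp1 and Egfl7. With every member given the same weight, the mean of log2(FPKM + 0.5) less its mean over the libraries was −0.09 ± 0.022 in labelled Ctrl sedentary, 0.06 ± 0.054 in labelled Nrip1KO sedentary, −0.09 ± 0.064 in labelled Ctrl trained and 0.12 ± 0.029 in labelled Nrip1KO trained muscle (SD, n = 3). All 6 labelled Nrip1KO libraries lay above all 6 labelled Ctrl libraries on this scale, again from FPKM as deposited. The lowest of the former was labelled Nrip1KO sedentary replicate 2 at 0.004. That library also had the highest FPKM sum over all genes. With libraries rescaled to the same FPKM sum, the sedentary median member log2 difference was 0.02, with 22 of 39 members higher. The sedentary separation is therefore given for the deposited scale only. Values of single members per library are also as deposited. The level is a description, without a test, since members of 1 library are not replicates of a condition.

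In sedentary muscle 35 of the 39 members (89.7%) were higher in labelled Nrip1KO, against 49.8% of all genes tested, and the median member log2 difference was 0.16 against −0.001. When libraries were rescaled to the same FPKM sum the median over all genes moved to −0.14, that of the members to 0.02, and 22 members were higher. Relative to all genes the members stood 0.16 higher in both cases. No member was called, while 3.51% of all genes were called and 1.92% were called higher. At an unadjusted p under 0.05 there were 8 members (20.5%) in limma, against 2080 of all genes (16.3%).

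The widest of these differences was that of Vwf, the carrier of factor VIII that endothelial cells store and release. It read 7.45, 9.30 and 6.77 FPKM in labelled Ctrl and 13.7, 13.2 and 11.5 in labelled Nrip1KO sedentary libraries, without overlap. The log2 difference was 0.68 (SE 0.19, adjusted p 0.0798, limma), so it did not pass. The marker sum of platelets, which also hold Vwf, ran from 8.83 to 15.2 FPKM in these labelled Ctrl and from 10.4 to 17.8 in these labelled Nrip1KO libraries, with Pf4 carrying most of it and Gp9 at no more than 0.295 FPKM anywhere. Its part in the Vwf values was not tested.

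Sox17, a SOXF factor of arterial endothelium, was at 6.07, 6.15 and 7.75 FPKM against 8.88, 9.12 and 8.77 in sedentary muscle. The groups did not overlap, at a log2 difference of 0.40 (SE 0.17, adjusted p 0.264). S1pr1, the receptor for sphingosine 1-phosphate that tightens junctions, was at 11.1, 8.37 and 7.78 FPKM against 10.8, 10.9 and 12.9. Labelled Ctrl replicate 1 overlapped the other group, and the difference of 0.34 did not pass (adjusted p 0.202). Pecam1 read 22.2, 20.6 and 20.03 FPKM against 26.6, 22.6 and 24.6, a log2 difference of 0.23 (SE 0.086, adjusted p 0.209) between groups that did not overlap. Plvap, which spans the diaphragms of caveolae and fenestrae, had 8.94, 10.4 and 9.28 FPKM against 10.7, 12.3 and 12.1 (log2 difference 0.28, adjusted p 0.219). Only 4 members were lower in sedentary labelled Nrip1KO muscle, namely Klf2 (−0.27), Ecscr (−0.21), Sox7 (−0.12) and Cd34 (−0.002), and none of these passed.

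For 6 of the 39 members (15.4%) every labelled Nrip1KO sedentary library lay above every labelled Ctrl sedentary library: Pecam1, Sox17, Cav1, Plvap, Vwf and Ushbp1. Over all genes tested the share was 9.79%.

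In trained muscle 4 of the 39 members were called, all higher in labelled Nrip1KO, where 5.98% of all genes were called and 3.21% were called higher. They were Ushbp1, Myct1, Nos3 and Mmrn2. The median member log2 difference was 0.24 against 0.01 over all genes, and 33 members (84.6%) were higher against 51.0% of all genes. At an unadjusted p under 0.05 there were 18 members (46.2%), against 2683 of all genes (21.1%).

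Ushbp1, a PDZ-binding protein found mainly in endothelium, lies at chr8:71384272-71395802 on the minus strand of GRCm38. It read 9.95, 7.73 and 8.26 FPKM in labelled Ctrl trained libraries and 12.5, 12.3 and 13.7 in labelled Nrip1KO trained libraries, with a log2 difference of 0.55 (SE 0.101, 95% interval 0.33 to 0.77, adjusted p 0.0100, limma). In sedentary muscle it read 9.72, 10.1 and 9.36 against 12.5, 10.5 and 11.9. All 6 labelled Nrip1KO libraries lay above all 6 labelled Ctrl libraries for Ushbp1 alone of the 39 members (2.56%), against 2.97% of all genes. Pecam1 and Sox17 also stood apart within each state, but not over all libraries together.

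Myct1, a membrane protein of endothelial cells, lies at chr10:5593775-5606904 on the plus strand. It was at 2.11, 2.19 and 1.67 FPKM in labelled Ctrl trained and at 2.82, 2.94 and 3.53 in labelled Nrip1KO trained libraries, a log2 difference of 0.53 (SE 0.121, adjusted p 0.0267, limma). In sedentary muscle the values were 2.78, 2.84 and 2.68 against 3.33, 3.36 and 2.81, where labelled Nrip1KO replicate 3 fell within the other group. Of all 4 groups labelled Ctrl trained was the lowest for this gene.

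Among the members called by genotype, Ushbp1 and Myct1 were the ones with an entry in the set of RefSeq promoters used here. These stretches are shown because many endothelial promoters are known to be bound by ETS factors. That of Emcn, an endothelial sialomucin whose training difference is given further on, stands beside them. Each is the 250 upstream bases of the promoter entry, 5′ to 3′ on the gene's strand (RefSeq, GRCm38.p6). They lie at chr8:71395802-71396051 (minus) for Ushbp1, chr10:5593478-5593727 (plus) for Myct1 and chr3:137340828-137341077 (plus) for Emcn. The Myct1 stretch ends short of the gene start given above, and the Emcn stretch runs past its gene start at chr3:137341067. Capitals mark AGGAAG or CGGAAG, spellings of the ETS core searched on both strands, so that a match on the other strand reads CTTCCT or CTTCCG, and the spellings cannot match at the same position of a strand.
Ushbp1: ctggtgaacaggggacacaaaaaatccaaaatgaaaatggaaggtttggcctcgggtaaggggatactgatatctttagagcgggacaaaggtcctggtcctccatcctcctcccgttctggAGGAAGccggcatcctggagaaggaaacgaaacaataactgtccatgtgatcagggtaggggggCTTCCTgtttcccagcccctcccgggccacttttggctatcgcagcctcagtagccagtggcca
Myct1: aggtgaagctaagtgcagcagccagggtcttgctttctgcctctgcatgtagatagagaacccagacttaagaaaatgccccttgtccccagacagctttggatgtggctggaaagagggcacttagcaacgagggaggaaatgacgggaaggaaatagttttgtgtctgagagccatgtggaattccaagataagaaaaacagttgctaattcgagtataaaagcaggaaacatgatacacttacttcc
Emcn: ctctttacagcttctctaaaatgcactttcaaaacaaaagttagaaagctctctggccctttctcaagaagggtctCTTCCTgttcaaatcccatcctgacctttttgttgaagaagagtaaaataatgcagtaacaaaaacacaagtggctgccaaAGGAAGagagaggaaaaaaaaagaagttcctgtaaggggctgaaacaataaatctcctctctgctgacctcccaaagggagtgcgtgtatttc
Ushbp1 and Emcn each held 2 matches to these spellings and Myct1 none. Other spellings of the ETS core were not searched, so the count does not show that Myct1 lacks one. Of the 19 members with an entry, 12 (63.2%) held at least 1 match, against 42.5% of 27025 genes of any kind, which describes these letters and not binding.

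Nos3, the endothelial nitric oxide synthase, was at 3.93, 3.73 and 3.71 FPKM in labelled Ctrl trained and at 5.06, 4.74 and 5.12 in labelled Nrip1KO trained libraries. The groups stood apart and the log2 difference was 0.35 (SE 0.087, adjusted p 0.0371, limma), whereas in sedentary muscle, at 3.94, 3.68 and 4.17 FPKM against 4.37, 3.796 and 4.04, it was 0.05 with overlap. Nos3 shares 25.2% of its exon length with a gene on the other strand, and the library kit did not keep strand. Mmrn2, a matrix protein that binds VEGF-A and the receptors Cd93 and Clec14a, was at 4.99, 4.57 and 4.45 FPKM against 5.89, 5.92 and 7.06, a log2 difference of 0.39 (SE 0.102, adjusted p 0.0475). In sedentary muscle Mmrn2 read 5.23, 4.49 and 4.93 FPKM against 5.14, 4.46 and 5.20, a difference of 0.01 between groups that overlapped. Of 24 alternative settings Mmrn2 kept its call in 7, and of 23 Nos3 kept its call in 11, while the log2 differences stayed between 0.28 and 0.45 and between 0.32 and 0.41.

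**Figure D2:**
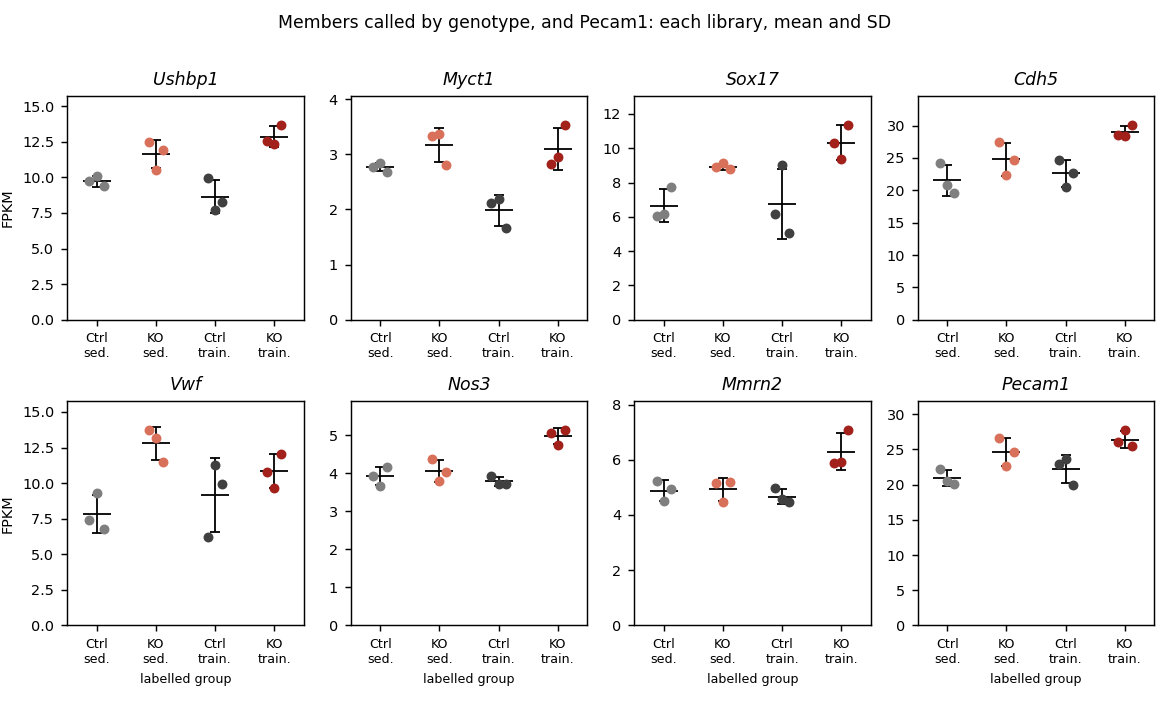
FPKM (y axis, from 0) of the 7 members called in a genotype comparison and of Pecam1 in each library (points) by labelled group (x axis; KO, Nrip1KO), with the group mean and SD as bars (n = 3). For Ushbp1 the labelled Nrip1KO points lie above the labelled Ctrl points in each state, at 10.5 to 13.7 against 7.73 to 10.1 FPKM; Nos3 and Mmrn2 separate in trained muscle.

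Some members of larger fold did not pass in trained muscle. Gja4, the gap junction protein connexin 37 of arterial endothelium, read 2.85, 4.24 and 2.48 FPKM against 4.42, 6.83 and 4.59, a log2 difference of 0.65 (SE 0.19, adjusted p 0.0769). The groups did not overlap, yet labelled Nrip1KO trained replicate 2 stood well above its group. In sedentary muscle Gja4 was at 3.49, 3.88 and 3.42 FPKM against 4.89, 3.70 and 3.72, with overlap (0.16). Sox17 read 6.19, 9.02 and 5.04 FPKM against 10.3, 9.34 and 11.4, a difference of 0.61 (adjusted p 0.0591). For Cldn5 the libraries were at 7.32, 4.52 and 3.34 FPKM against 6.01, 10.9 and 5.92, so that the groups overlapped (log2 difference 0.56, adjusted p 0.300), as they did at 5.56, 5.37 and 4.24 against 8.19, 5.47 and 5.19 in sedentary muscle. Eng, an accessory receptor for BMP9 and TGF-β, was at 12.3, 13.9 and 11.7 FPKM against 14.3, 19.6 and 16.9 (0.40, adjusted p 0.0516), without overlap.

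The 6 members lower in labelled Nrip1KO trained muscle were Calcrl (−0.40), Adgrl4 (−0.22), Cyyr1 (−0.22), Klf2 (−0.08), Cd34 (−0.07) and Emcn (−0.03), and none passed. Calcrl, the receptor that Ramp2 turns into one for adrenomedullin, was at 2.94, 4.02 and 3.18 FPKM against 3.04, 1.65 and 2.74 (adjusted p 0.235), and labelled Nrip1KO trained replicate 2 held the lowest value. Ramp2 itself was at 15.8, 31.0 and 19.9 FPKM against 23.4, 26.6 and 20.5 in trained muscle and at 14.3, 18.9 and 16.4 against 18.8, 21.1 and 15.04 in sedentary muscle, with overlap in each. Of the Ramp2 exon length 33.4% is shared with Vps25 on the same strand, so its value can hold fragments of that gene.

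Every labelled Nrip1KO trained library lay above every labelled Ctrl trained library for 17 of the 39 members (43.6%), against 13.9% of all genes tested. By role these were Cdh5, Pecam1, Gja4 and Podxl of 10 junction and surface members, Erg and Sox17 of 6 transcription factors, and Robo4, Eng, Ptprb and Clec14a of 11 receptors. The others were Nos3 of 4 members for transport, caveolae and nitric oxide, Mmrn2 and Egfl7 of 3 secreted members, and Ushbp1, Rasip1, Ecscr and Myct1 of 5 adaptors and others.

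Averaged over both training states, a comparison that uses the same libraries again, 5 of the 39 members were called, all higher in labelled Nrip1KO, against 8.8% of all genes called and 4.9% called higher. They were Ushbp1 (log2 difference 0.40, SE 0.071, adjusted p 0.00449), Sox17 (0.51, SE 0.12, adjusted p 0.0197), Myct1 (0.35, adjusted p 0.0234), Cdh5 (0.28, adjusted p 0.0308) and Vwf (0.47, SE 0.13, adjusted p 0.0425), all by limma. The median member log2 difference was 0.20 against 0.003 over all genes, and 35 members were higher against 50.8% of all genes. At an unadjusted p under 0.05 there were 18 members (46.2%), against 3072 of all genes (24.1%).

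Cdh5, at chr8:104101625-104144511, was at 24.2, 20.8 and 19.6 FPKM in labelled Ctrl sedentary and 27.4, 22.3 and 24.6 in labelled Nrip1KO sedentary libraries. In trained muscle it was at 24.7, 20.5 and 22.7 against 28.6, 28.4 and 30.1. The groups overlapped in sedentary muscle and not in trained muscle, where the log2 difference was 0.36 (adjusted p 0.0662). Pecam1, at chr11:106654217-106750628, was at 23.0, 23.7 and 19.9 FPKM against 26.1, 27.7 and 25.5 in trained muscle. Its averaged log2 difference of 0.24 (SE 0.061) had an adjusted p of 0.0286, but its fold stayed under 1.2, so it was not called. The sedentary and trained differences of Pecam1 were 0.23 and 0.25. For Vwf the trained libraries were at 6.25, 11.3 and 9.93 FPKM against 10.8, 9.67 and 12.04, with overlap, and its log2 difference was 0.27 there against 0.68 in sedentary muscle. Cdh5 and Vwf each kept the averaged call in 11 of 23 alternative settings, Sox17 in 20 of 23 and Myct1 in 14 of 22.

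**Figure D3:**
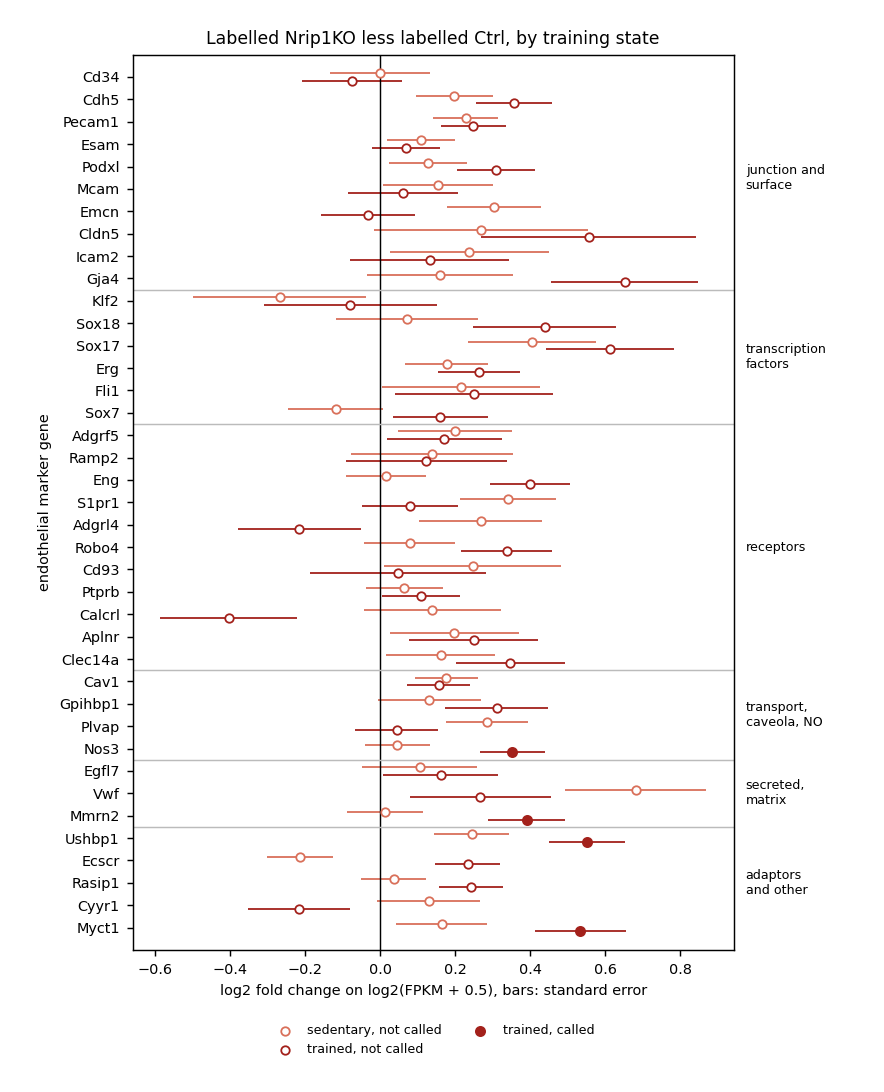
Log2 fold change of labelled Nrip1KO less labelled Ctrl on log2(FPKM + 0.5) (x axis) for each member (y axis, by role), with its standard error, in sedentary and trained muscle; filled points were called. Most points lie right of 0 in both states (35 and 33 of 39), and the filled ones are Ushbp1, Myct1, Nos3 and Mmrn2 in trained muscle.

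By role the averaged medians were alike in size. Of 10 junction and surface members 9 were higher (median log2 difference 0.20), with Cdh5 called. Of 6 transcription factors 5 were higher (0.23), with Sox17 called and Erg at 0.22 (adjusted p 0.102). Of 11 receptors 10 were higher (0.18) and none was called; Robo4, a guidance receptor that stabilizes vessels, was at 0.21 (adjusted p 0.161). All 4 members for transport, caveolae and nitric oxide (0.18) and all 3 secreted members (0.20) were higher, with Vwf called among the latter. Of 5 adaptors and others 4 were higher (0.14), with Ushbp1 and Myct1 called. Without the 9 members that other cells are also known to express (Cav1, Cd34, Mcam, Podxl, Klf2, Fli1, S1pr1, Vwf and Eng), 30 members remained, the median was 0.19 and 4 were called.

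The called members, like the calls over all genes, depended on which libraries were included. With all libraries 5.98% of all genes were called in trained muscle and 8.8% on average. Without labelled Nrip1KO trained replicate 3, no member was called in trained muscle and 1, Ushbp1, was called on average. The shares over all genes were then 2.47% and 6.89%. Without labelled Ctrl trained replicate 1, labelled Ctrl trained replicate 3 or labelled Nrip1KO trained replicate 2, the trained call was left with 1 member, again Ushbp1, and without labelled Ctrl sedentary replicate 1 with 2. Over all genes the trained share was then 3.05%, 3.03%, 2.62% and 4.83%, in that order. The averaged count fell to 2 without labelled Ctrl sedentary replicate 3, labelled Nrip1KO sedentary replicate 1 or labelled Ctrl trained replicate 3, and to 3 without labelled Ctrl sedentary replicate 1, labelled Nrip1KO trained replicate 1 or labelled Nrip1KO trained replicate 2. Over all genes the averaged share was then 7.40%, 7.49%, 7.01%, 6.66%, 7.99% and 7.45%, in that order. The member medians moved less, from 0.20 to 0.25 in trained muscle and from 0.16 to 0.20 on average over all libraries left out in turn.

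Markers of other cells moved with the same groups. The summed adipocyte markers stood at 12.4 to 25.5 FPKM in labelled Ctrl sedentary and 43.1 to 116 in labelled Nrip1KO sedentary libraries, and at 35.1 to 76.9 against 43.8 to 113 in trained muscle. The highest were replicate 3 of labelled Nrip1KO sedentary (116 FPKM), of labelled Nrip1KO trained (113) and of labelled Ctrl trained (76.9), and no other library exceeded 48.6 FPKM. All 5 adipocyte markers tested were higher on average in labelled Nrip1KO muscle, none of them called, and Adipoq ranged from 0.791 to 10.3 FPKM. Without these 3 libraries, left out after their sums were seen, no member was called in any genotype comparison, over the 9 libraries left, and the medians were 0.16 in sedentary muscle, 0.21 in trained muscle and 0.17 on average. Calls over all genes fell as well, from 3.51% to 1.62% in sedentary muscle, 5.98% to 0.974% in trained muscle and 8.8% to 5.13% on average. Ushbp1 then had an averaged log2 difference of 0.35 (adjusted p 0.0708).

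Mural cells, the pericytes and smooth muscle that wrap the endothelium, had a summed FPKM of 225 to 234 against 239 to 258 in sedentary and of 211 to 248 against 243 to 262 in trained libraries. Of 15 mural markers 12 (80%) were higher on average (median log2 difference 0.21), against 50.8% of all genes. Pdgfrb (0.35), Kcnj8 (0.32) and Higd1b (0.40) were called higher and Abcc9 (−0.29) and Lmod1 (−0.67) lower. These 5 were 33.3% of the list, against 8.8% of all genes called on average. The sedentary mural median of 0.14 turned to −0.02 with the same FPKM sum. All 8 genes of fast fibers were lower on average in labelled Nrip1KO muscle (median −0.38), and 5 were called, against the same 8.8% of all genes. Their sum was 115000 to 127000 FPKM against 86100 to 114000 in sedentary and 114000 to 139000 against 97700 to 102000 in trained libraries. That list stayed lower under every rescaling, except that 1 gene was higher in trained muscle after quantile normalization. The part of these other cells in the endothelial values was not tested.

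**Figure D4:**
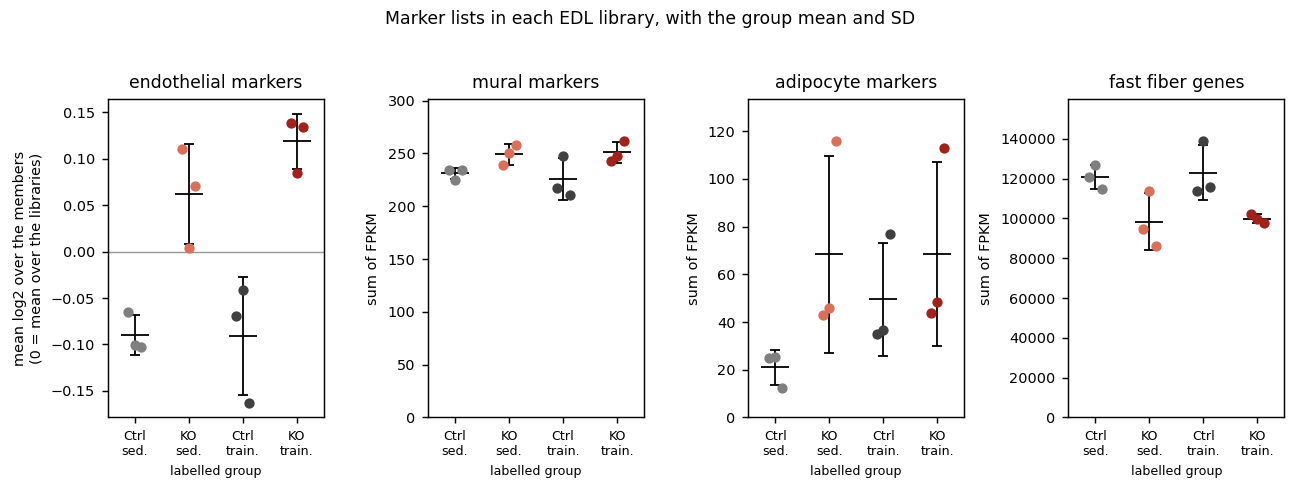
The mean log2 level of the 39 endothelial markers (left, less its mean over the libraries) and the summed FPKM of mural, adipocyte and fast fiber marker lists (other panels, from 0) in each library by labelled group, with the group mean and SD (n = 3). Endothelial levels, from FPKM as deposited, run from 0.004 to 0.138 in labelled Nrip1KO and from −0.163 to −0.041 in labelled Ctrl libraries. The adipocyte sums of 3 libraries stand out at 76.9 to 116 FPKM.

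Fibroblast markers summed to 437 to 478 FPKM in labelled Ctrl and 479 to 581 in labelled Nrip1KO sedentary muscle, and to 562 to 629 against 472 to 556 in trained muscle, so the genotypes stood apart in each state, in opposite orders. Of its 8 genes 7 were higher in labelled Nrip1KO sedentary muscle (median log2 difference 0.11) and 0 in trained muscle (−0.27), and limma called none, with 2 at an unadjusted p under 0.05 in each state. Schwann cell markers ran the other way, with overlap in each state: all 7 were lower in labelled Nrip1KO sedentary muscle (median −0.38) and all 7 higher in trained muscle (0.35), and limma called none, with 1 at an unadjusted p under 0.05 in each state. The part of either list in the member differences was not tested. Lymphatic markers summed to 5.65 to 8.87 FPKM over all libraries, and Prox1, the factor that defines lymphatic endothelium, was at no more than 0.292 FPKM. Leukocyte markers summed to 6.70 to 10.3 FPKM. Red cell transcripts ranged from 723 to 1830 FPKM and overlapped between the genotypes in both states. Macrophage sums were 32.2 to 58.0 FPKM.

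No member passed the test for wheel running at either genotype. In labelled Ctrl muscle no member was called, as no gene was (0% of all genes, 0 called by limma). An unadjusted p under 0.05 was found for 4 members (10.3%), against 1061 of all genes (8.33%). The median member log2 difference was −0.01, with 18 of 39 higher. In labelled Nrip1KO muscle again no member and no gene was called (0%), with 25 members higher and a median of 0.10. There 8 members (20.5%) had an unadjusted p under 0.05 in limma, against 1544 genes (12.1%). Averaged over both genotypes 0.118% of all genes and no member were called, with 21 members higher and a median of 0.02. On that average 8 members (20.5%) had an unadjusted p under 0.05, against 1466 of all genes (11.5%).

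S1pr1 had the widest training difference above 0. It read 12.6, 15.5 and 13.6 FPKM in labelled Ctrl trained against the 7.78 to 11.1 FPKM of labelled Ctrl sedentary libraries, and 15.4, 14.5 and 14.1 in labelled Nrip1KO trained against 10.8, 10.9 and 12.9 in labelled Nrip1KO sedentary libraries. Trained and sedentary libraries did not overlap at either genotype. The log2 differences were 0.60 (SE 0.13, adjusted p 0.294) and 0.34 (adjusted p 0.341), and 0.47 on average (SE 0.090, unadjusted p 0.000291, adjusted p 0.0882, limma).

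Emcn, a sialomucin of capillary and venous endothelium, had the widest training difference below 0. It read 7.80, 6.10 and 6.53 FPKM in labelled Ctrl sedentary and 6.10, 6.30 and 5.69 in labelled Ctrl trained libraries, which overlapped. In labelled Nrip1KO muscle it read 7.15, 9.04 and 9.44 FPKM in sedentary and 6.004, 5.23 and 6.48 in trained libraries, without overlap (log2 difference −0.49, SE 0.13, adjusted p 0.212). On average the difference was −0.33 (adjusted p 0.159). Ramp2 was 0.36 higher on average with a wide spread (SE 0.15, adjusted p 0.379). In labelled Ctrl muscle Sox18, a SOXF factor, was at 7.44, 10.9 and 9.30 FPKM sedentary and 4.67, 8.97 and 6.97 trained (−0.43, adjusted p 0.584), with overlap. In labelled Nrip1KO muscle Sox18 was at 9.36, 10.1 and 9.41 FPKM sedentary and 9.66, 8.84 and 9.09 trained. Also in labelled Ctrl muscle, Myct1 differed by −0.40 (adjusted p 0.441), and its trained libraries all lay below its sedentary ones.

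**Figure D5:**
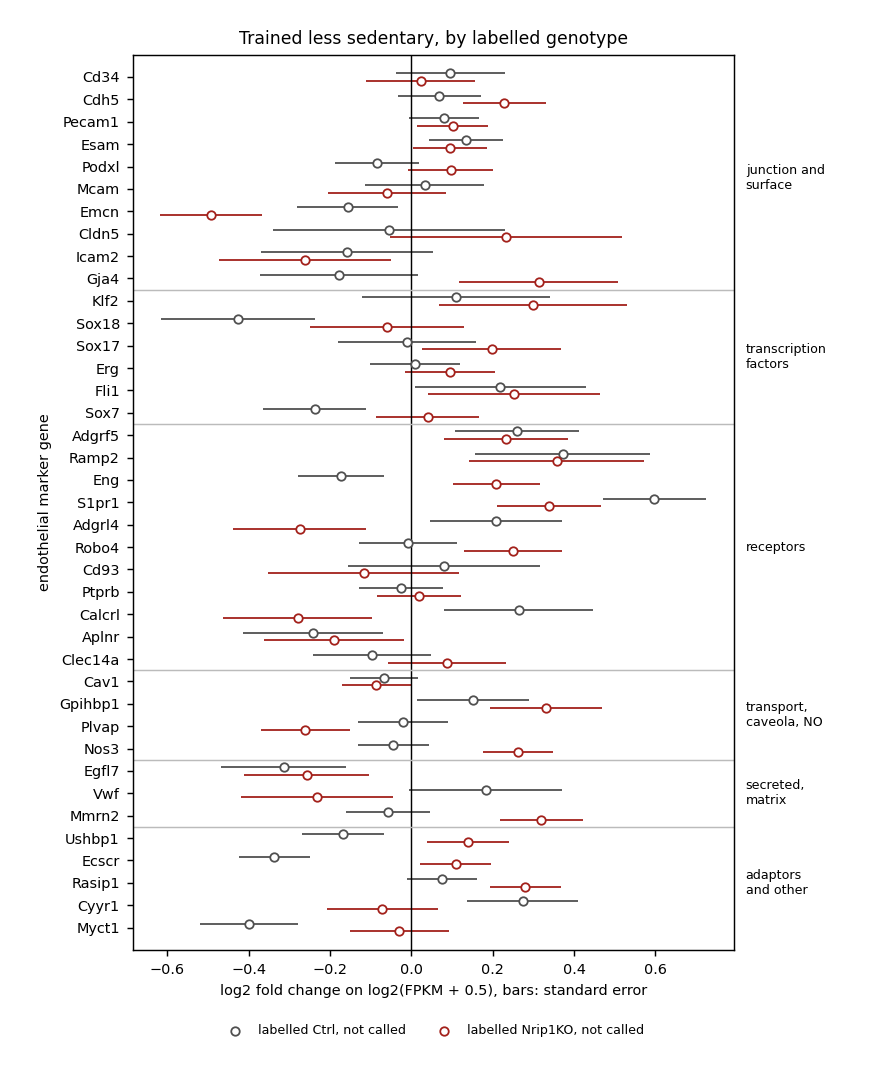
Log2 fold change of trained less sedentary muscle on log2(FPKM + 0.5) (x axis) for each member (y axis, by role), with its standard error, at each labelled genotype. No member was called; S1pr1 lies farthest right in labelled Ctrl muscle (0.60) and Emcn farthest left in labelled Nrip1KO muscle (−0.49).

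The interaction, which is the genotype difference in trained less that in sedentary muscle, was called for no member and no gene (0%). In limma 4 members (10.3%) had an unadjusted p under 0.05, against 989 genes (7.76%). Ecscr, a surface protein of endothelial cells, had the smallest p of these, at 0.45 (SE 0.12, adjusted p 0.536). It read 7.71, 8.10 and 8.16 FPKM against 6.23, 7.46 and 6.83 in sedentary muscle and 6.01, 6.54 and 6.12 against 7.95, 6.87 and 7.41 in trained muscle, so the order of the genotypes was opposite in each state, without overlap in either. Mmrn2 (0.38), Eng (0.38) and Nos3 (0.31) were the other three. The largest values of either sign were those of Calcrl (−0.54, SE 0.26, adjusted p 0.646), Gja4 (0.49, SE 0.28, adjusted p 0.689) and Adgrl4 (−0.48, SE 0.23, adjusted p 0.647). Adgrl4, an adhesion receptor of sprouting endothelium, was at 7.61, 7.31 and 8.36 FPKM against 8.18, 7.84 and 13.02 in sedentary muscle and at 9.12, 9.74 and 8.28 against 7.66, 8.57 and 6.96 in trained muscle, with overlap in each and labelled Nrip1KO sedentary replicate 3 far above its group. Calcrl in sedentary muscle was at 2.62, 2.67 and 2.83 FPKM against 2.96, 2.63 and 3.56, with overlap. A call in trained muscle and none in sedentary muscle was therefore not shown to be a difference between training states for any member.

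A wider list of 79 other endothelial genes, which hold receptors, ligands, arterial and venous factors, basement membrane and transport genes, was read beside the members. Of these 74 passed the filter, and 63 were higher on average in labelled Nrip1KO muscle, at a median log2 difference of 0.16. The 7 called on average (9.46%, against 8.8% of all genes) were all higher: the fatty acid translocase Cd36 (0.64, adjusted p 0.000508), Aqp1 (0.36), the ephrin Efnb2 (0.34), the angiopoietin receptor partner Tie1 (0.33), Cd300lg (0.33), Palmd (0.32) and the Notch ligand Dll4 (0.30). Cd36 is also made by muscle fibers and adipocytes. In sedentary muscle Cd36 (0.67) was the 1 gene called (1.35%, against 3.51% of all genes), and at the same FPKM sum the list's median turned from 0.11 to −0.03. In trained muscle 7 were called (9.46%, against 5.98% of all genes), of which Bmpr2 (−0.41), a BMP receptor named after its value was seen, was the 1 lower.

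Tie1, which like most of the members is largely confined to endothelium, was at 10.1, 9.18 and 10.3 FPKM against 11.7, 11.8 and 11.9 in sedentary muscle and at 10.3, 10.9 and 9.19 against 13.3, 13.4 and 14.5 in trained muscle. Its groups did not overlap in either state. Dll4, an arterial and tip cell ligand, was at 3.57, 2.995 and 3.39 FPKM against 3.83, 3.74 and 3.12 in sedentary muscle, with overlap, and at 2.55, 2.65 and 2.44 against 3.63, 3.90 and 4.001 in trained muscle, without overlap. Of the 74 genes 1, Notch4, was called for training averaged over genotypes (0.65, 1.35% of the list against 0.118% of all genes), a gene also named after its value was seen. It stood at 3.32, 2.38 and 3.17 FPKM in labelled Ctrl sedentary and 3.87, 5.16 and 3.502 in labelled Ctrl trained libraries. In labelled Nrip1KO muscle Notch4 stood at 3.29, 2.89 and 2.65 FPKM in sedentary and 5.85, 5.93 and 5.65 in trained libraries.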

How the data were processed

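RNA was extracted from EDL with DNase treatment, and the library kit keeps no strand. Per the labels and the study's methods, transcripts were quantified with Salmon 1.10.2 against mm10, summed to genes and analysed with DESeq2 1.44.0. The authors deposited expression as FPKM per gene and library. The annotation release, the gene filter and the function that gave the FPKM are not given in the sources used here. A further 8 deposited columns hold the authors' own log2 fold changes and adjusted p-values and were not used.

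The labels gave each library its group and replicate number. Of 17752 genes, the 12744 that averaged 0.5 FPKM or more were tested on log2(FPKM + 0.5) with limma 3.58.1 (R 4.3.3), with 1 mean per group, a variance prior that follows the mean and Benjamini-Hochberg adjustment. All groups shared 1 estimate of the spread. Thresholds followed the study's. The fit was tested on simulated data. The members and lists were chosen with earlier results of these data known. Values in every library are given for Pecam1 and Cdh5, the 5 members of highest mean, every called member and, per comparison, the 3 largest differences not called; other members were named after their values were seen.

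Depth, estimated at 19959088 to 29068589 fragments per library, came from the steps between low values of 1613 genes with 1 transcript; 99.1 to 99.6% of these lay within 0.15 of a whole fragment, against 30% by chance. Exon positions came from GENCODE M21 (17732 of 17752 gene IDs matched). Promoters came from a set of RefSeq entries, and the set used here held 19 of the 39 members. No replicate pair held the same values. Same-numbered libraries mostly did not deviate together (r −0.105 to 0.241), so replicate numbers were not used to pair them. The highest r, from 0.162 to 0.241, were between replicate 2 of labelled Ctrl sedentary, labelled Nrip1KO sedentary and labelled Ctrl trained muscle. The alternatives were pseudocounts of 0.1 and 1, no filter or one at 5 FPKM, 3 rescalings, a constant variance prior, a replicate block, the adjusted p alone, only the libraries compared, fewer members, and each library left out in turn.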

Additional observations from a re-analysis of the deposited data

How the results depend on the processing

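Of the recomputed counts, medians and group levels 378 kept their size and 43 moved, and of the recomputed single-gene results 613 kept their call and direction, 73 lost and 12 gained a call, and none turned its direction. With the same FPKM sum the sedentary median fell to 0.02, the trained median rose to 0.30 with 6 members called, the averaged count was 3, training in labelled Nrip1KO muscle gave 1 call and a median of 0.27, averaged training a median of 0.082, the interaction a median of 0.28, and the levels of labelled Nrip1KO sedentary and trained muscle were −0.041 and 0.18. Over all genes that rescaling called 5.32% in trained muscle, 7.47% on average and 1.18% for training in labelled Nrip1KO muscle. It also moved the share of all genotype calls that were higher, from 54.8% to 18.6% in sedentary muscle. In trained muscle that share went from 53.7% to 80.9%, and on average from 55.6% to 45.0%. With the same sum outside the mitochondrial genome the shares were 82.7%, 75.9% and 77.5%. The sedentary count was then 1, against 3.76% of all genes called, with a median of 0.23, and the averaged median was 0.25. A filter at 5 FPKM gave 1 sedentary call among 28 members, against 7.07% of all genes called. No filter gave 2 trained calls, against 3.71% of all genes, and only the compared libraries 1 trained call, against 3.49%. Fewer members gave an interaction median of 0.12. Without the 3 libraries of highest adipocyte sum, chosen after seeing the data, there were 0 trained and 0 averaged calls, 1 for averaged training (Egfl7) and a labelled Ctrl training median of 0.045. The shares called over all genes were 0.974%, 5.13% and 0.196% for the same 3 comparisons. The replicate block, for numbers that pair nothing by design (5 of 18 same-numbered pairs over 0.1, r −0.105 to 0.241, 4 of 12 libraries closest to their own number), gave 0 sedentary, 6 trained and 4 averaged member calls, and 441, 756 and 1132 calls over all genes.

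With each library left out in turn, called members ran from 0 to 1 in sedentary muscle (median 0.11 to 0.21), 0 to 5 in trained muscle (0.20 to 0.25), 1 to 7 on average (0.16 to 0.20), 0 to 0 for training in labelled Ctrl (−0.041 to 0.045) and labelled Nrip1KO muscle (0.021 to 0.13), 0 to 1 for averaged training (0.002 to 0.05) and 0 to 0 for the interaction (0.032 to 0.15). Over all genes the share called by genotype ran from 1.29% to 3.78% in sedentary muscle, 2.47% to 6.87% in trained muscle and 6.66% to 9.35% on average. Group levels ran from −0.11 to −0.08 in labelled Ctrl sedentary, 0.05 to 0.09 in labelled Nrip1KO sedentary, −0.12 to −0.07 in labelled Ctrl trained and 0.10 to 0.14 in labelled Nrip1KO trained muscle. The causes were not tested. A genotype difference of about 0.2 in log2 lies under a fold of 1.2, so the rule could not call it at any p-value. With the adjusted p alone the members called by genotype were 0 in sedentary and 4 in trained muscle, as with both thresholds. Clec14a, at 1.25 FPKM, rests on the fewest fragments per length.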
